A study of Rattus norvegicus with 100 samples.

Results

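The genes described here make cholesterol or hold its synthesis in check: Hmgcs1, Idi1, Fdps, Fdft1, Sqle, Cyp51, Acat2 and Insig1. They were chosen by name, and every probe set annotated to one of them alone was taken. Of the 8 listed genes 7 were found, on 10 probe sets, out of 10411 genes with a probe set of their own among the 15923 probe sets of the array. Hmgcs1, the synthase that feeds the pathway with hydroxymethylglutaryl-CoA, matched no probe set in the annotation used and was not analysed here. The list was drawn up knowing that the genes moved in opposite ways in the tissues.

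Expression was measured on 100 Affymetrix RAE230A arrays of tissue from immature female rats in an OECD-compliant uterotrophic assay, a standard test for estrogenic compounds. Treated rats were given ethinylestradiol (EE), a synthetic estrogen, and a control group was taken beside them at every time. EE and control uteri were each on 5 arrays per time (2, 4, 8, 24, 28, 48 and 72 h), and EE and control pituitary glands each on 3 arrays per time (4, 8, 24, 48 and 72 h). The sources used here do not give strain, age, dose, route or vehicle, nor whether tissue was pooled. The labels do not state that the arrays of a group came from separate animals, so p-values measure the spread between these arrays, which may be technical.

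Cholesterol is built from acetyl-CoA through mevalonate. Acat2 (cytosolic acetyl-CoA acetyltransferase) joins acetyl-CoA units at the start, Idi1 isomerises isopentenyl diphosphate, and Fdps makes farnesyl diphosphate, the branch point for sterols, dolichol, ubiquinone and prenylated proteins. Fdft1 (squalene synthase) commits farnesyl diphosphate to sterols, Sqle (squalene epoxidase) adds the oxygen that allows ring closure, and Cyp51 demethylates lanosterol. When sterols are scarce, the transcription factor encoded by Srebf2 is carried from the endoplasmic reticulum by Scap, cut by the proteases encoded by Mbtps1 and Mbtps2, and switches on these genes and Insig1. Insig1 and Insig2 proteins hold Scap back when sterols are plentiful, so Insig1 is both a target and a brake of the pathway. In the immature uterus estrogen drives water uptake and then growth, and in the pituitary it acts on hormone-producing cells.

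The tissues carried their defining markers, apart from Pomc. Prl, Gh1 and Cga, hormone genes of the pituitary, had values on all 30 pituitary arrays and on 0 of 70 uterus arrays. Other pituitary markers, Fshb, Lhb and Ghrhr, had values on 69, 50 and 48 uterus arrays as well. Their control medians were 25.4, 48.0 and 32.4 in uterus, against 1409, 2833 and 212 in pituitary. Myh11, a smooth muscle gene, had values on all 70 uterus arrays and on 5 of 30 pituitary arrays, while Pomc, the corticotroph hormone gene, had a value on only 1 pituitary array. Uterus arrays held 9338 to 10677 values with medians from 94.6 to 107.7, and pituitary arrays 9318 to 10135 values with medians from 103.3 to 109.7. Of all values expected 37.2% were blank. Pgr, an estrogen-responsive gene, differed between EE and control by 1.27 (log2) in uterus at 4 h and by 0.66 in pituitary at 8 h, and passed the test at both. Gal and Prl, listed with Pgr to check the pituitary response, passed limma's test at no pituitary time (smallest adjusted p = 0.0617 and 0.597).

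Promoter sequence was on hand for 5 of the 7 measured genes. Those of Fdps, Idi1, Cyp51 and Insig1 are shown as those of the genes with the largest differences in uterus among the 5. Each runs up to the base before the start site of RefSeq's promoter table (GRCr8), which for Insig1 lies within the listed span of the gene, and is written 5′ to 3′ on the strand of the gene. The window of Fdps is chr2:176804817-176805016 (minus strand), that of Idi1 chr17:66547525-66547724 (minus strand), that of Cyp51 chr4:30991493-30991692 (plus strand) and that of Insig1 chr4:8057770-8057969 (minus strand). Capitals mark matches on either strand to the CCAAT box (CCAAT, or ATTGG on the other strand), the Sp1 motif (GGGCGG, or CCGCCC) and the E-box (CACGTG).
Fdps: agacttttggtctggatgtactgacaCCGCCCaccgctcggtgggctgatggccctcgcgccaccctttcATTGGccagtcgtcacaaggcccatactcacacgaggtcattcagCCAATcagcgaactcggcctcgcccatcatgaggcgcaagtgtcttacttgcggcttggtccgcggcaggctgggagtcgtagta
Idi1: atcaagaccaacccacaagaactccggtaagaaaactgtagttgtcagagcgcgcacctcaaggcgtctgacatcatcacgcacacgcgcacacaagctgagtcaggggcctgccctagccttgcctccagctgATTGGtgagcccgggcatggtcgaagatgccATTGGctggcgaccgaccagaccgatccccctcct
Cyp51: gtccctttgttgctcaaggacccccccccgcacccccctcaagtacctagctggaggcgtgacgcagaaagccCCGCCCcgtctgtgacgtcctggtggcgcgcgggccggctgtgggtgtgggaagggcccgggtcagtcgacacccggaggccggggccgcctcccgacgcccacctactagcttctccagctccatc
Insig1: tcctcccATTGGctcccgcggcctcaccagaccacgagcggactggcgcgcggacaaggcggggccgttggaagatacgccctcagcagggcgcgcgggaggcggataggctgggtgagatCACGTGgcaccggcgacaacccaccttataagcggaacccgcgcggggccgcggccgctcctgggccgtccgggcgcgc
In a window of 300 bases (250 before the start and 50 after it), CCAAT was found in 3 of the 5 genes, Fdps, Idi1 and Insig1, and in 37.5% of all 33469 promoters. GGGCGG was found in 4 of the 5, Acat2, Cyp51, Fdps and Insig1, and in 33.1% of all promoters. CACGTG was found in 1, Insig1, and in 6.42%. The letters TCACNCCAC, a form of the sterol regulatory element, were found in 0 of the 5 and in 1.12% of all promoters. The full palindrome of the estrogen response element was found in 0 of the 5 and in 0.0269%. All motifs were sought on both strands, no motif contains another, and a match is a description of the sequence.

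In uterus the genes rose after EE, beginning at 4 h and with the largest differences at 24 or 28 h for the 5 genes tested at all times. Testing needed 3 or more of the 5 values in both groups, differences are on the scale of log2(intensity + 30.4), which understates the change of dim genes, and a gene passed at a limma p under 0.05 after adjustment over all genes tested. None of the 7 tested genes passed at 2 h by this test (0 at an unadjusted p under 0.05), when 4.01% of all genes tested were higher in EE. At 4 h, 4 of 6 tested genes rose, against 23.6% of all genes, and at 8 h 7 of 7, against 28.7%. All 5 tested genes rose at 24 h and at 28 h, when 24.8% and 28.4% of all genes did. At 48 h 7 of 7 rose, against 24.2% of all genes, and at 72 h 6 of 7, against 23.4%. The median difference of the tested genes was 0.076 at 2 h, 0.77 at 4 h, 1.24 at 8 h, 1.39 at 24 h, 1.93 at 28 h, 1.38 at 48 h and 0.82 at 72 h, while the median of all genes lay between -0.075 and -0.020. Every EE array lay above every control array for 0 of 7 genes at 2 h (3.74% of all genes tested), 4 of 6 at 4 h (17.5%), 5 of 7 at 8 h (23.6%), 5 of 5 at 24 h (18.1%) and at 28 h (21.4%), 7 of 7 at 48 h (17.4%) and 5 of 7 at 72 h (16.3%).

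**Figure D1:**
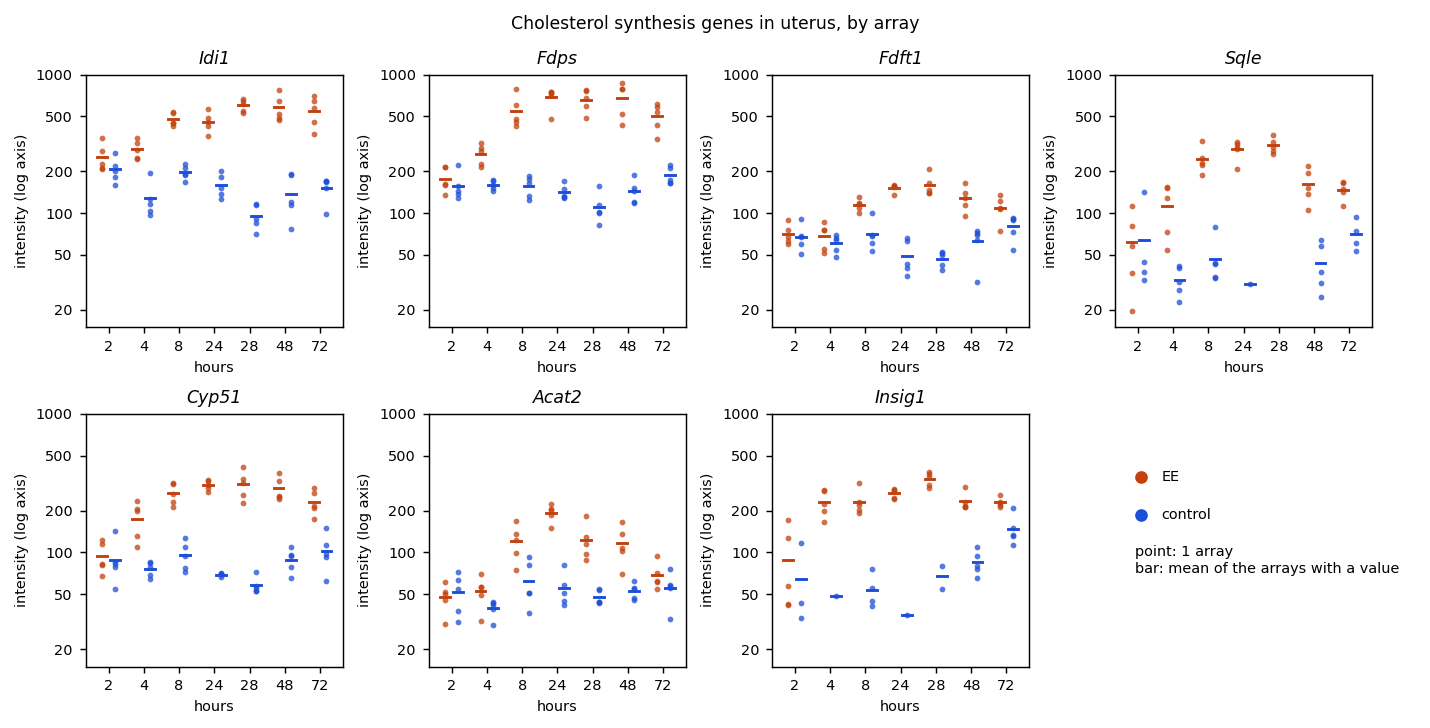
Intensity of each of the 7 genes on every uterus array (log axis) at 2 to 72 h, with EE arrays to the left of control arrays at each time; a point is 1 array and a bar the mean of the arrays with a value. EE arrays separated upward from control arrays from 4 h on for Idi1, Fdps, Cyp51, Sqle and Insig1 and from 24 h on for Fdft1 and Acat2, with overlap again at 72 h for Fdft1 and Acat2.

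Idi1 differed most between EE and control at 28 h. From 24 to 28 h its mean rose from 457 to 598 in EE uteri and fell from 160 to 95.3 in control uteri. Its intensity at 2 h was 206, 211, 280.1, 228 and 351 in EE uteri, against 271, 219, 199.98, 182 and 161 in control uteri, and the groups overlapped. At 4 h it was 247, 287, 320.3, 350.2 and 249.9 in EE uteri, against 127, 116, 97.4, 196 and 103 in control uteri. All EE arrays lay above all control arrays at 4 h, and the difference was 1.04 ± 0.16 (SE), adjusted p = 1.26e-07. At 28 h the values were 542, 613, 649, 664 and 524 in EE uteri, against 116, 70.6, 85.2, 115 and 89.97 in control uteri. The gap between the groups was wider than at any other time, with a difference of 2.33 ± 0.16 (SE), adjusted p = 1.63e-19, a 5.03-fold ratio that ranked 11 from the top of 6991 genes. The difference was 1.15 at 8 h, 1.36 at 24 h, 1.88 at 48 h and 1.65 at 72 h, and no EE array overlapped a control array at any of these times. At 72 h Idi1 still averaged 546 ± 135 in EE and 151 ± 30.8 in control uteri (SD, n = 5 each).

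Fdps, the branch point enzyme, rose at every time from 4 h. At 4 h its values were 214, 281, 297, 318 and 225 in EE uteri, against 172, 144, 159, 151 and 172 in control uteri. The groups did not overlap, and the difference was 0.64 ± 0.16 (SE), adjusted p = 0.000449. At 24 h the values were 735, 478, 754, 752 and 716 in EE uteri, against 128, 171, 130.1, 149 and 132 in control uteri. Of the EE arrays 4 lay between 716 and 754 and replicate 44 lay lower, at 478, still far above every control array. The difference was 2.05 ± 0.16 (SE), adjusted p = 2.85e-17, a 4.13-fold ratio ranking 13 from the top of 7084 genes. It was 1.61 at 8 h, 2.28 at 28 h, 1.99 at 48 h and 1.27 at 72 h, and 0.14 at 2 h, which did not pass (adjusted p = 0.687).

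Acat2, the opening enzyme, rose later and did not pass at 72 h. At 4 h EE arrays held 32.04 to 69.7 and control arrays 29.8 to 44.2, which overlapped, and the difference of 0.24 did not pass (adjusted p = 0.198). At 24 h its values were 185, 149, 201, 223 and 205 in EE uteri, against 81.3, 58.4, 50.8, 41.8 and 44.5 in control uteri. The groups were far apart, and the difference was 1.39 ± 0.16 (SE), adjusted p = 3.37e-11. It was 0.70 at 8 h, where the groups overlapped, 0.94 at 28 h and 0.79 at 48 h, all of which passed, and 0.21 at 72 h, which did not (adjusted p = 0.267). Rat Acat2 has close copies in the genome, so its signal may include theirs.

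Fdft1, the enzyme that commits carbon to sterols, also came late. At 4 h EE arrays held 51.2 to 86.8 and control arrays 48.4 to 69.8, and the difference of 0.12 did not pass (adjusted p = 0.444). At 28 h its values were 148, 139, 208, 165 and 139 in EE uteri, against 51.1, 38.99, 42.3, 52.1 and 50.1 in control uteri. Every EE array was above every control array by a wide margin, and the difference was 1.29 ± 0.13 (SE), adjusted p = 1.47e-13. The difference was 0.53 at 8 h, 1.21 at 24 h, 0.78 at 48 h and 0.34 at 72 h, and passed at each. At 8 and 72 h the groups overlapped. At 72 h the gene no longer passed without control replicate 78 (adjusted p = 0.103) or EE replicate 84 (adjusted p = 0.0747).

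Sqle was near the limit of measurement in control uteri. At 8 h its values were 229, 334, 188, 251 and 221 in EE uteri, against 78.7, 34.2, 43.2, 34.6 and 43.4 in control uteri. The EE arrays were all far above the control arrays, of which replicate 25 was the brightest, and the difference was 1.84 ± 0.22 (SE), adjusted p = 1.69e-10. At 24 h Sqle had values on all 5 EE arrays, 208 to 326, and on 1 of 5 control arrays, at 30.6. At 28 h it had values on all 5 EE arrays, 268 to 366, and on 0 of 5 control arrays. Neither time could be tested. With every blank cell of the table set to 30.4, the difference was 2.37 at 24 h and 2.47 at 28 h, sizes that depend on the value put in. Filled control values have no spread of their own, so no p-value is given for them. The difference was 1.12 at 4 h, 1.38 at 48 h and 0.82 at 72 h, and passed at each without overlap. At 2 h it was -0.0042, with EE at 19.5 to 112 and control at 32.7 to 143.

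Cyp51 followed a smooth course. Its values at 4 h were 131, 199, 205, 234 and 109 in EE uteri, against 78.5, 85.2, 83.5, 69.1 and 64.3 in control uteri. The groups did not overlap, and the difference was 0.91 ± 0.16 (SE), adjusted p = 1.03e-06. At 24 h the values were 329.6, 272, 291, 334 and 306 in EE uteri, against 70.2, 69.7, 65.9, 70.5 and 69.3 in control uteri. The control arrays were within a few units of each other and the EE arrays far above them, with a difference of 1.76 ± 0.16 (SE), adjusted p = 5.10e-15. The difference was 0.076 at 2 h, 1.24 at 8 h, 1.93 at 28 h, 1.43 at 48 h and 0.99 at 72 h, and passed from 4 h on. At 72 h Cyp51 still averaged 231 ± 46.6 in EE and 103 ± 32.02 in control uteri (SD, n = 5 each).

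Insig1, the brake, rose at each time it could be tested after 2 h. At 4 h it had values on all 5 EE arrays, 199, 222, 279, 283 and 167, and on 1 of 5 control arrays, at 48.8. At 24 h all 5 EE arrays held 243 to 285 and 1 control array 35.6, and at 28 h all 5 EE arrays held 292 to 378 and 2 control arrays 54.7 and 79.9. These times were not tested for want of control values. With blanks set to 30.4 the differences were 2.00 at 4 h, 2.26 at 24 h and 2.33 at 28 h. These sizes too depend on the value put in, and no p-value is given for them. At 8 h the values were 202, 315, 192, 222 and 231 in EE uteri, against 75.5, 54.9, 41.1 and 44.4 in control uteri, with 1 control array blank. The groups were far apart, and the difference was 1.64 ± 0.20 (SE), adjusted p = 6.88e-10. It was 1.20 at 48 h and 0.57 at 72 h, and passed at both. At 72 h the lowest EE array and the highest control array were both at 211.

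The EE effect changed between neighbouring times for some genes, and the steps were not compared between genes. Between 2 and 4 h the effect on 3 of 6 genes rose (14.7% of all genes tested did), by 0.78 for Idi1, 1.12 for Sqle and 0.84 for Cyp51. Between 4 and 8 h it rose for 1 of 6 (9.22% of all genes), Fdps, by 0.97 (adjusted p = 0.00107), while the step of 0.72 for Sqle did not pass (adjusted p = 0.0925). Between 8 and 24 h it rose for 3 of 5 (23.6% of all genes): Fdft1 by 0.68, Acat2 by 0.68 and Cyp51 by 0.51 (adjusted p = 0.0491). Between 24 and 28 h it rose for 1 of 5 (5.09%), Idi1, by 0.97 (adjusted p = 0.00264), and between 28 and 48 h it fell for 1 of 5 (13.9%), Fdft1, by 0.51. Between 48 and 72 h 0 of 7 passed in limma's test, when 0.282% of all genes fell. At an unadjusted p under 0.05 there were 4 of the 7, and the share of all genes at that threshold is not given. All 7 differences were below 0, from -0.71 for Fdps to -0.23 for Idi1.

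Control uteri were not constant. Of the 5 genes with enough control values at every time, 4 changed over time (32.6% of all genes did): Idi1, Fdps, Fdft1 and Cyp51. All 4 were lowest at 28 h. The highest mean stood above the 28 h mean by 0.91 for Idi1 (at 2 h), 0.64 for Fdps, 0.50 for Fdft1 and 0.56 for Cyp51 (at 72 h). For Idi1, control uteri averaged 95.3 ± 19.6 at 28 h, while EE uteri averaged 598 ± 62.6 (SD, n = 5 each). EE uteri themselves changed over time for all 7 genes, as did 90% of all genes, by an F test added after the values were seen.

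Most tested enzymes of the pathway outside the list rose in uterus from 8 h on. Of these enzymes 12 were measured. None of 8 passed at 2 h, 1 rose and 2 fell of 7 at 4 h, and 7 rose and 1 fell of 10 at 8 h. At 24 and 28 h 7 of 7 rose, at 48 h 8 of 9 and at 72 h 7 of 9. The background shares are those given above. Msmo1, which oxidises sterol methyl groups, rose as early as 4 h, with differences of 0.84, 1.08, 1.34, 1.77, 0.87 and 0.40 at 4, 8, 24, 28, 48 and 72 h. Dhcr7, a late reductase on the way to cholesterol, had 0.49, 0.99, 0.996, 0.69 and 0.50 from 8 to 72 h, and Sc5d, the sterol desaturase, 0.45, 0.71, 0.82, 0.53 and 0.57. Ebp, the sterol isomerase, ran the other way at first: it fell at 4 h (-0.33) and 8 h (-0.37) and rose from 24 h (0.74, 0.62, 0.77 and 0.61). The median of the tested genes of this list was 0.74 at 24 h, against 1.39 for the genes described above.

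**Figure D2:**
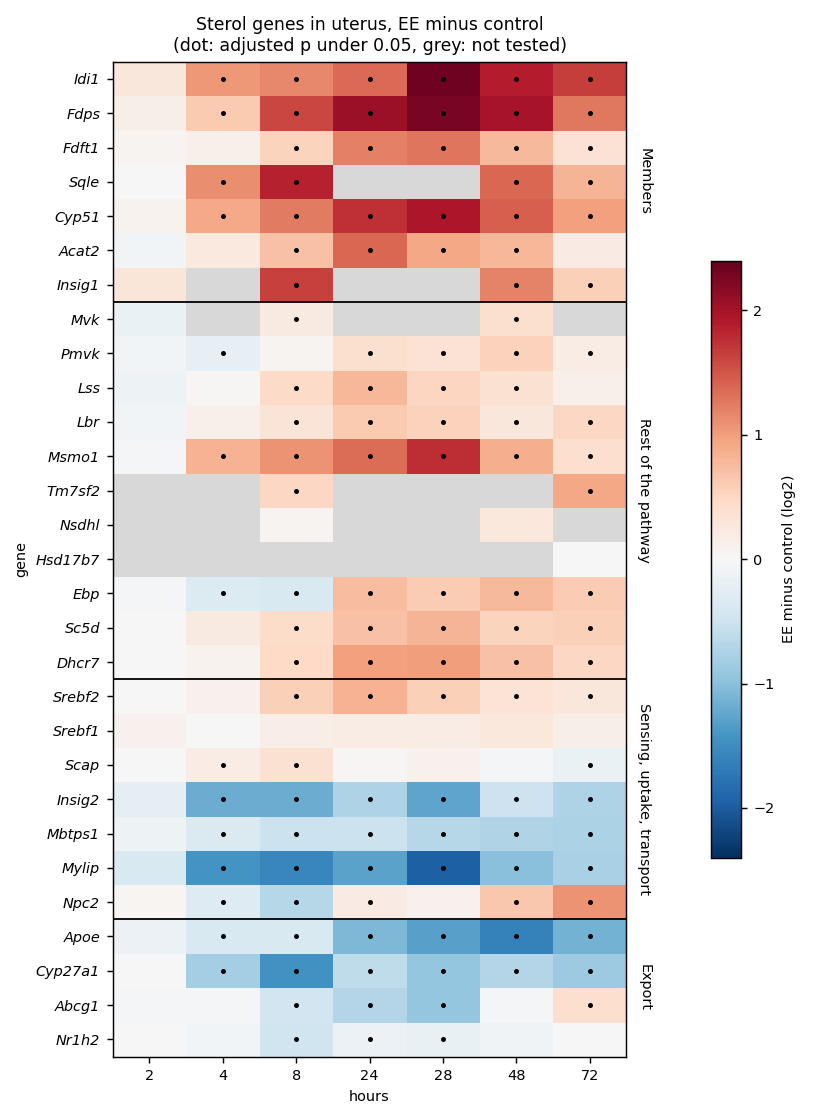
EE minus control in uterus (log2, colour) at 7 times for the measured genes of the list, for the other enzymes of the pathway and for genes of sterol sensing, uptake, transport and export; dots mark an adjusted p under 0.05 and grey cells were not tested. The pathway rows are red from 8 or 24 h on, while Insig2, Mbtps1, Mylip, Apoe and Cyp27a1 are blue from 4 h on.

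The regulators of the pathway split. Srebf2, which encodes the main activator of sterol genes, rose at 8, 24, 28, 48 and 72 h by 0.57, 0.83, 0.57, 0.33 and 0.26, after a difference of 0.10 at 4 h that did not pass (adjusted p = 0.47). Idi1, Fdps, Sqle and Cyp51 passed at 4 h and Srebf2 did not, but the difference between these genes and Srebf2 was not tested. Srebf1, its relative that serves fatty acid synthesis, passed at none of the 7 times, with differences between -0.020 and 0.24. Scap, the carrier, rose by 0.18 at 4 h and 0.37 at 8 h, and fell at 72 h (-0.16). Mbtps1, the protease that makes the opening cut, fell from 4 h on, with differences of -0.35 at 4 h and -0.76 at 72 h.

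Insig2 went against Insig1. Both encode proteins that retain Scap, yet Insig2 fell at every time from 4 h, with differences of -1.18, -1.20, -0.73, -1.27, -0.50 and -0.75 at 4, 8, 24, 28, 48 and 72 h (adjusted p = 1.46e-17 at 4 h and 3.58e-06 at 48 h). Insig1 differed by 1.64, 1.20 and 0.57 at 8, 48 and 72 h. Mylip, a ubiquitin ligase induced by oxysterols, fell most in this list, with differences of -1.44, -1.56, -1.28, -1.96, -1.005 and -0.77 at those times. Npc2, which moves cholesterol out of lysosomes, fell at 4 and 8 h (-0.32 and -0.68) and rose at 24, 48 and 72 h (0.19, 0.65 and 1.08). Of the 9 measured genes for sensing, uptake and transport, 1 rose and 5 fell at 4 h, 2 rose and 5 fell at 8 h, and 2 rose and 5 fell at 72 h. Of all genes tested 23.6% rose and 34.5% fell at 4 h, 28.7% and 35.5% at 8 h, and 23.4% and 36.8% at 72 h. Counts for this list at the other times are not given. Stard4 and Npc1 were not analysed here.

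Genes of sterol export and of oxysterol sensing mostly fell in uterus up to 28 h. Of the tested genes 5 of 7 fell at 4 h, 6 of 8 at 8 h, 5 of 7 at 24 h and 6 of 7 at 28 h, with 0 rising, and at 48 and 72 h 3 of 7 fell and 2 rose. The share of all genes that fell was 2.38% at 2 h, 34.5% at 4 h, 35.5% at 8 h, 34.4% at 24 h, 34.4% at 28 h, 33% at 48 h and 36.8% at 72 h. Apoe, a lipid carrier, fell from 4 to 72 h, with differences of -0.36, -0.37, -1.08, -1.30, -1.62 and -1.14. Cyp27a1, which makes an oxysterol, fell at the same times, with differences of -0.82, -1.46, -0.62, -0.92, -0.70 and -0.87, most at 8 h. Abcg1, a sterol exporter, fell at 8, 24 and 28 h (-0.45, -0.70 and -0.92) and rose at 72 h (0.39).

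Fatty acid genes were mixed at 4 h, mostly rose from 8 to 48 h and were mixed again at 72 h. Of the tested genes 3 of 11 rose and 3 fell at 4 h, 7 of 11 rose and 3 fell at 8 h, 9 of 10 rose and 1 fell at 24 h, 7 of 12 rose and 1 fell at 28 h, 8 of 12 rose and 2 fell at 48 h, and 4 of 12 rose and 4 fell at 72 h. Of all genes, 23.6%, 28.7%, 24.8%, 28.4%, 24.2% and 23.4% rose at 4, 8, 24, 28, 48 and 72 h. Fasn, the fatty acid synthase, rose by 1.20, 1.34, 0.60 and 1.03 at 4, 8, 24 and 28 h and fell at 48 and 72 h (-0.56 and -0.98), when Idi1 differed by 1.88 and 1.65. Acly, which supplies acetyl-CoA to both pathways, rose from 4 to 48 h (0.40, 0.72, 0.99, 0.75 and 0.30) and had a difference of -0.043 at 72 h, which did not pass (adjusted p = 0.738). Of genes that use mevalonate products, 2 of 6 rose at 4 h, 2 of 5 at 8 h and 2 of 6 at 28 h, Rabggtb and Pggt1b at each, both subunits of prenyl transferases, against 23.6%, 28.7% and 28.4% of all genes. At 24 h 1 of 6 rose, and at 48 and 72 h 0 of 5 rose and 1 fell. Rabggtb rose by 0.61 at 4 h and 0.76 at 8 h and fell by 0.53 at 72 h.

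In pituitary some of the genes fell at 8 and 72 h, and none passed as higher in EE. Testing needed 2 or more of the 3 values in both groups, and all 7 genes had them at all times. At 4 h 0 of 7 passed in limma's test (0 at an unadjusted p under 0.05), when 0.439% of all genes were lower in EE. At 8 h 2 of 7 fell, against 1.82% of all genes, and at 24 h 0 of 7 (0 unadjusted), against 0.0583%. At 48 h 0 of 7 passed, against 0.102%, and 1, Fdps, fell when arrays were weighted by their quality. At an unadjusted p under 0.05 there were 3 of 7 at 48 h, against 629 of all 6864 genes, in either direction. At 72 h 4 of 7 fell, against 0.963% of all genes. Every EE array lay below every control array for 4 of 7 genes at 8 h (8.96% of all genes), 1 at 24 h (5.99%), 6 at 48 h (10.1%) and 6 at 72 h (11.6%). These counts are for the brighter probe set where a gene had another. At the other probe set the groups overlapped for Idi1 at 8 and 48 h and for Cyp51 at 48 and 72 h. EE was lower without overlap there for Idi1 at 72 h, Cyp51 at 8 h and Fdft1 at 8, 48 and 72 h. The share of all genes higher in EE was 1.05%, 1.73%, 0.0292%, 0.219% and 1.76% at 4, 8, 24, 48 and 72 h, against 0 of 7 for these genes at each time. No gene's EE arrays were all below its control arrays at 4 h (7.24% of all genes). The median of the 7 differences was 0.14 at 4 h, -0.32 at 8 h, 0.067 at 24 h, -0.25 at 48 h and -0.42 at 72 h.

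**Figure D3:**
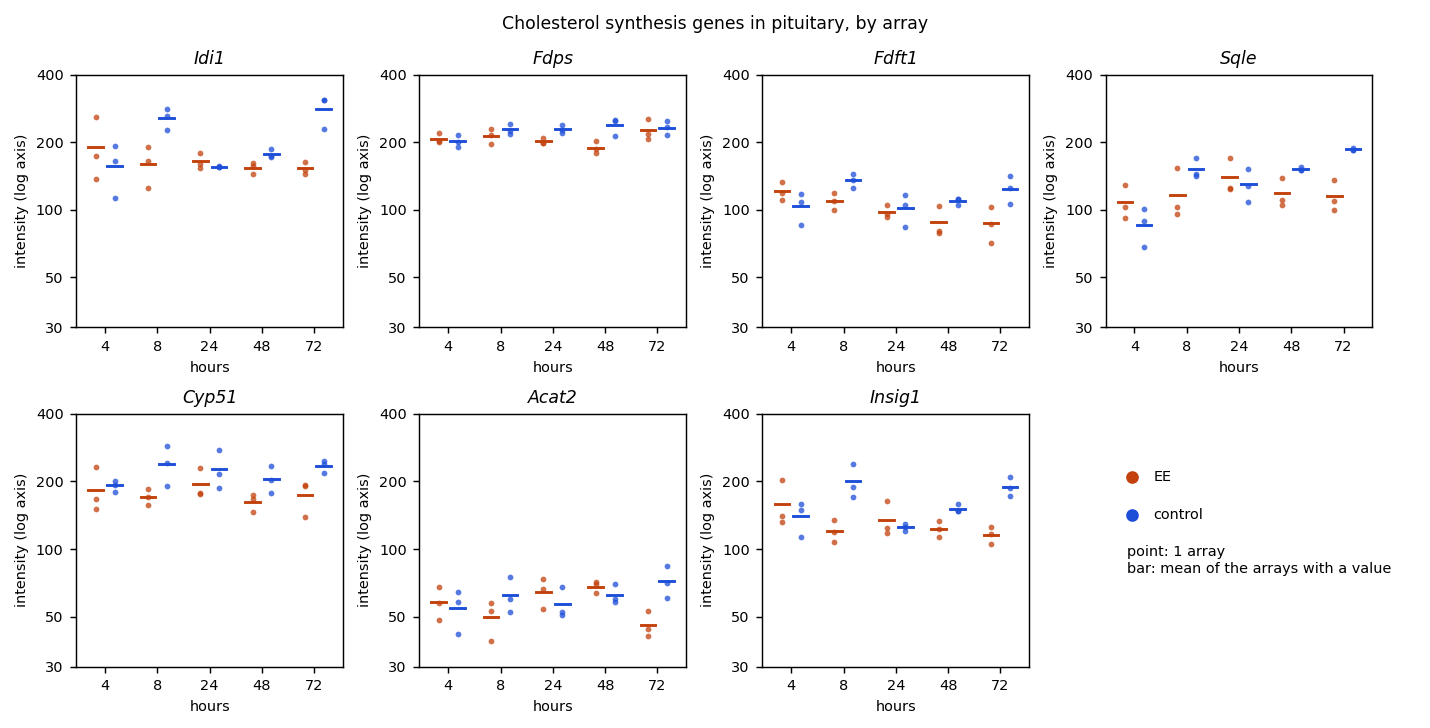
Intensity of each of the 7 genes on every pituitary array (log axis) at 4 to 72 h, with EE arrays to the left of control arrays at each time; a point is 1 array and a bar the mean. EE arrays lay below control arrays at 72 h for every gene but Fdps, and mixed with them at 4 h for all 7.

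Several of these pituitary falls depended on single arrays, or for Idi1 and Fdft1 on the probe set, while the fall of Idi1 at 72 h passed without any 1 array (adjusted p up to 0.0441). At 8 h the number that fell went to 0 without control replicate 28 or without EE replicate 34, to 1 without control replicate 30 or EE replicate 33, and to 0 when only the 2 groups compared were fitted. At 72 h it went to 1 without control replicate 73 or EE replicate 82 and to 2 without EE replicate 83. For Idi1 the other probe set gave -0.20 at 8 h and -0.51 at 72 h (adjusted p = 0.497 and 0.0835), neither of which passed.

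Idi1 had the largest pituitary difference of the 7 genes, at 72 h. At 8 h its values were 190.3, 125 and 165 in EE pituitaries, against 226, 263 and 280.2 in control pituitaries. All EE arrays were below all control arrays, and the difference was -0.60 ± 0.16 (SE), adjusted p = 0.031. At 72 h the values were 164, 144 and 150.3 in EE pituitaries, against 309.6, 228 and 307 in control pituitaries. The EE arrays were close together and well below the control arrays, with a difference of -0.76 ± 0.16 (SE), adjusted p = 0.0064. At 24 h EE arrays held 154, 159 and 179.9 and control arrays 157, 154 and 155, nearly the same, and the difference was 0.067.

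Insig1 fell at the same times. At 8 h its values were 135, 119 and 108 in EE pituitaries, against 170.3, 239.8 and 189.6 in control pituitaries. The groups did not overlap, and the difference was -0.60 ± 0.13 (SE), adjusted p = 0.00915. At 72 h the values were 125, 105 and 116 in EE pituitaries, against 209, 172 and 186 in control pituitaries. Again no EE array reached a control array, and the difference was -0.59 ± 0.13 (SE), adjusted p = 0.00839. The differences at 4, 24 and 48 h were 0.14, 0.082 and -0.25, and did not pass.

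Sqle and Fdft1 passed only at 72 h. Sqle was at 136, 99.5 and 109.7 in EE pituitaries, against 184, 185 and 188 in control pituitaries. The control arrays were almost equal and above all EE arrays, and the difference was -0.58 ± 0.14 (SE), adjusted p = 0.0194. Fdft1 was at 103, 71.4 and 86.8 in EE pituitaries, against 125, 141 and 106 in control pituitaries. The groups came close to each other without overlap, and the difference of -0.40 ± 0.11 (SE), adjusted p = 0.048 was just past the threshold. Sqle no longer passed without any of 5 of the 6 arrays (adjusted p = 0.0564 to 0.1004). For Fdft1, with arrays centred on their medians the adjusted p was 0.0647, and the other probe set gave -0.25 (adjusted p = 0.123).

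Cyp51, Acat2 and Fdps did not pass at any time in pituitary. Cyp51 at 8 h was at 184, 158 and 169.7 in EE pituitaries, against 243, 191 and 287 in control pituitaries. EE arrays were lower without overlap, but the difference of -0.42 had an adjusted p of 0.0991. It passed with array weights (adjusted p = 0.0187) and as the mean of both probe sets (adjusted p = 0.0462). The other Cyp51 probe set gave -0.38, -0.079 and -0.11 at 8, 48 and 72 h, none of which passed limma's test (adjusted p = 0.0679, 0.916 and 0.770). The brighter one gave -0.28 at 48 h and -0.38 at 72 h. Acat2 at 72 h was at 41.03, 52.96 and 44.2 in EE pituitaries, against 70.8, 60.6 and 84.3 in control pituitaries. EE arrays were lower without overlap here as well, with a difference of -0.42 (adjusted p = 0.0536). It passed with array weights (adjusted p = 0.00543) and without control replicate 75 (adjusted p = 0.0437). Fdps differed most at 48 h, by -0.29 (adjusted p = 0.11), with EE at 202, 178 and 187 and control at 252, 249 and 214.

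In control pituitaries 3 of 7 genes changed over time, Idi1, Sqle and Insig1, where 1.61% of all genes did. Sqle was lowest at 4 h (88.9, 100.4 and 68.1) and highest at 72 h (184, 185 and 188), 0.90 apart on the log2 scale (adjusted p = 0.0073). Idi1 had its lowest mean at 4 h and its highest at 72 h as well, 0.74 apart (adjusted p = 0.0107). Insig1 was lowest at 24 h and highest at 8 h, 0.56 apart (adjusted p = 0.0407). In EE pituitaries 0 of 7 passed the same F test in limma, where 8.37% of all genes did after adjustment. At an unadjusted p under 0.05 there were 2, Fdft1 and Acat2, and the share of all genes at that threshold is not given. The F test in EE pituitaries was added after the values were seen, and the difference between EE and control courses was not tested as a whole. Idi1 shows the courses: it averaged 153 ± 10.1 in EE and 281 ± 46.3 in control pituitaries at 72 h, and 164 ± 13.8 in EE and 155 ± 1.28 in control at 24 h (SD, n = 3 each). Between neighbouring times the pituitary effect passed for 0 of 7 genes at each step in limma's test, with 4 at an unadjusted p under 0.05 between 4 and 8 h, 3 between 8 and 24 h, 0 between 24 and 48 h and 3 between 48 and 72 h. The share of all genes that passed there after adjustment was 0.0456%, 0.243%, 0% and 0% at these steps. The share of all genes at an unadjusted p under 0.05 is not given for these steps.

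The other enzymes of the pathway were 9 tested genes in pituitary at each time, of which 0 passed in limma's test. At an unadjusted p under 0.05 there were 4 at 8 h, 1 at 72 h and 0 at 4, 24 and 48 h. Of all genes tested, 1362 of 6689 at 8 h and 915 of 6645 at 72 h had an unadjusted p under 0.05. Sc5d differed by -0.36 at 8 h and -0.38 at 72 h (adjusted p = 0.087 and 0.0991), and Dhcr7 by -0.22 at 8 h (adjusted p = 0.116). Srebf2 differed by 0.0086, -0.16, -0.077, -0.20 and -0.21 at 4, 8, 24, 48 and 72 h, Srebf1 by 0.050, -0.16, -0.25, -0.38 and -0.25 and Insig2 by -0.094, 0.043, 0.016, -0.039 and -0.10, and none of these passed. The lists for sterol sensing, export, fatty acids and users of mevalonate also had 0 genes passing in limma's test at every pituitary time, with 0 to 3 at an unadjusted p under 0.05.

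The tissues were then set against each other in 1 fit of all 100 arrays. The EE effect in uterus exceeded that in pituitary for 4 of 6 genes at 4 h (15.2% of all genes did so), for 7 of 7 at 8 h (22.5%), for 5 of 5 at 24 h (17.8%), and for 7 of 7 at 48 h (15%) and at 72 h (14.5%). Idi1 had the largest gap at 72 h: its effect was 1.65 in uterus and -0.76 in pituitary, a difference of 2.41 (adjusted p = 7.24e-13). For Insig1 at 8 h the effects were 1.64 and -0.60, a difference of 2.24 (adjusted p = 4.75e-10). For Fdps at 48 h they were 1.99 and -0.29, a difference of 2.27 (adjusted p = 2.16e-13). At 24 h no pituitary difference passed, and they lay between -0.19 and 0.12. A rise in uterus beside a fall in pituitary, each past its own test, was seen for Idi1 and Insig1 at 8 h and for Idi1, Insig1, Sqle and Fdft1 at 72 h. For Fdft1 at 72 h the other probe set passed limma's test in neither tissue (adjusted p = 0.429 in uterus and 0.123 in pituitary). The genes were chosen knowing that they moved in opposite ways, so these counts and p-values describe them and are not independent support.

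**Figure D4:**
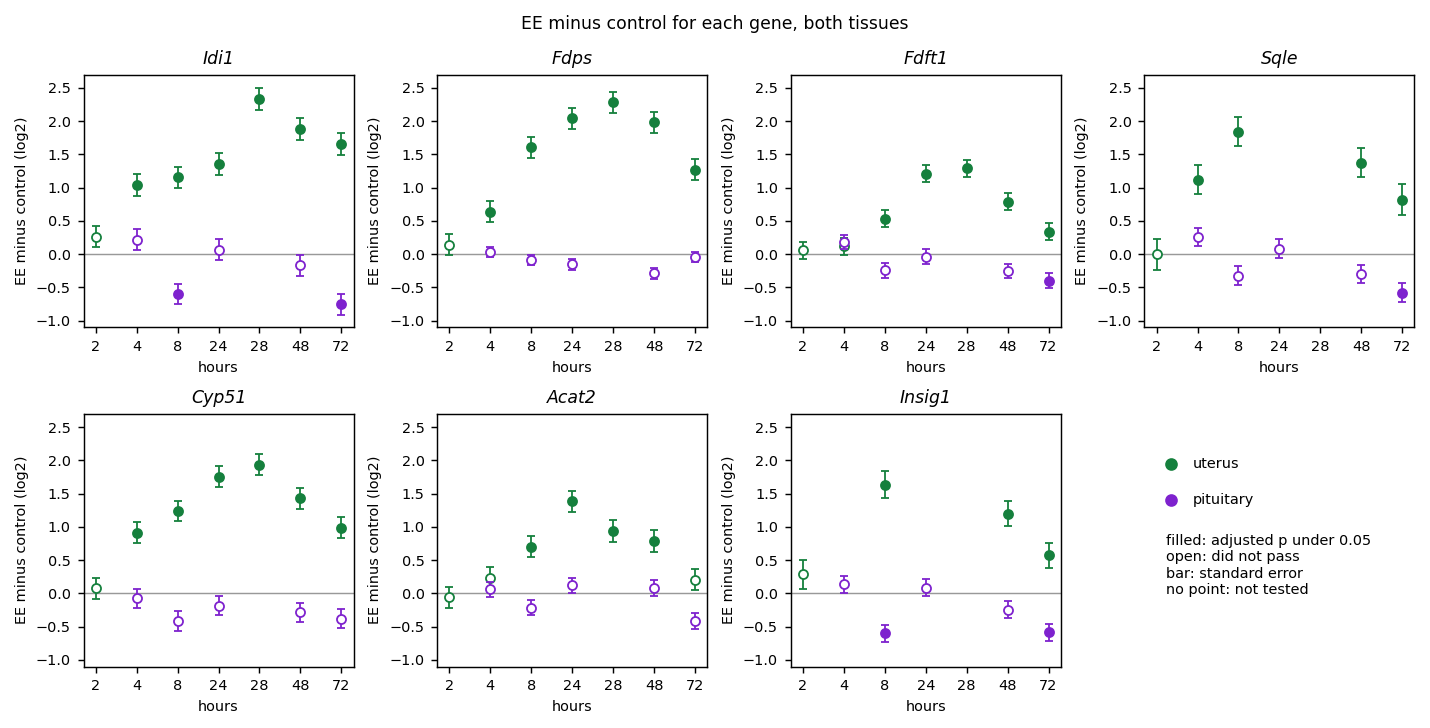
EE minus control (log2, with its standard error) for each of the 7 genes at 2 to 72 h in uterus and at 4 to 72 h in pituitary; filled points passed at an adjusted p under 0.05, open points did not, and a missing point was not tested. Uterus points lie above 0 from 4 h on and pituitary points lie at or below 0 except at 4 and 24 h, where some lie slightly above it, and Acat2 at 48 h.

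At 4 h the gap was less firm. It was 0.98 for Cyp51, 0.86 for Sqle, 0.83 for Idi1 and 0.61 for Fdps (adjusted p = 0.00075, 0.0281, 0.00711 and 0.0315). It did not pass for Fdft1 (-0.063) or Acat2 (0.18). Without EE uterus replicate 21 or 23, or control pituitary replicate 16 or 17, 2 genes passed in place of 4, and without EE pituitary replicate 20 only 1 did.

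Without EE these genes were dimmer in uterus than in pituitary. Over the 5 shared times control uterus minus control pituitary was -1.11 for Cyp51, -0.63 for Fdft1, -0.45 for Fdps, -0.34 for Idi1 and -0.16 for Acat2, and all 5 tested genes passed, as did 47.6% of all genes in this direction. For Acat2 the adjusted p was 0.0482, and 0.189 with arrays centred on their medians. Under EE at 28 h, uteri held Cyp51 at 227 to 413, while control pituitaries held it at 178 to 287 over all times. This last comparison of levels was not tested. The 3′ minus 5′ difference of Actb (log2), a sign of RNA quality, was 0.066 to 1.09 on uterus arrays and 1.23 to 1.86 on pituitary arrays. Its part in the levels of the 2 tissues was not tested.

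Idi1, Cyp51 and Fdft1 each had another probe set, and in uterus it ran the same way. The other probe set of Idi1 differed by 0.85 at 4 h and 2.34 at 28 h, against 1.04 and 2.33 for the brighter one. That of Cyp51 differed by 0.73 and 1.63, and the brighter Cyp51 probe set is of a kind that can bind several transcripts. That of Fdft1 differed by 0.82 at 28 h, against 1.29, and by 0.083 at 72 h, which did not pass (adjusted p = 0.429).

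Other cell types moved with EE over the same hours, and in bulk tissue fewer cells of a type and less RNA per cell cannot be told apart. At 4 h, when 4 of the genes had risen, summed levels of the pituitary glia list were lower in EE (1133 to 1505 in EE and 1879 to 2331 in control), most of them from Vim, an intermediate filament gene that stromal cells also express and that fell by 0.67 at 4 h. Summed marker levels overlapped for epithelium (1995 to 2962 in EE and 1802 to 2524 in control), dividing cells (905 to 1499.7 in EE and 726 to 1222 in control) and macrophages (113 to 263 in EE and 205 to 279 in control). At 8 h, when all 7 had risen, they overlapped for dividing cells (783 to 1159 in EE and 814 to 1429 in control) and macrophages but not for epithelium (2441 to 2613 in EE and 1499 to 2229 in control), of whose 6 markers all had values, and the glia list was lower in EE (791 to 1092 in EE and 1722 to 1981 in control). At 28 h the glia list was again lower (1438 to 1790.0 in EE and 1855 to 2498 in control), and EE was above control for epithelium (2919 to 3785 in EE and 1505 to 1927 in control), dividing cells (1798 to 2471 in EE and 503 to 663 in control) and macrophages (412 to 523 in EE and 223 to 346 in control). Smooth muscle sums overlapped at all 7 times. Of 4 measured adipocyte markers Plin1 had values on 15 of 70 uterus arrays and Lipe on 7, and the sums overlapped except at 48 h, when EE was lower (0.00 to 131 in EE and 158 to 1118 in control). The part of these shifts in the rise of the cholesterol genes was not tested.

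In pituitary gonadotroph sums were lower in EE at 72 h (7741 to 8838 in EE and 10209 to 10371 in control) but overlapped at 8 h (9779.6 to 10736 in EE and 9369 to 12017 in control). They were also lower at 24 h (7942 to 10840 in EE and 11135 to 12136 in control) and 48 h (7763 to 9246 in EE and 10950 to 12755 in control). At 24 and 48 h 0 of the 7 cholesterol genes passed, and every EE array lay below every control array for 1 and 6 of them (5.99% and 10.1% of all genes). Dividing-cell sums were higher at 72 h (1016 to 1125 in EE and 941 to 993 in control) and overlapped at 8 h (658 to 804 in EE and 756 to 776 in control). They were higher as well at 24 h (810 to 886 in EE and 675 to 775 in control) and 48 h (1062 to 1162 in EE and 819 to 893 in control). Lactotroph and somatotroph sums were higher in EE at 72 h (13374 to 14304 in EE and 12738 to 13213 in control) and overlapped at 8 h, when 2 of the 4 markers fell, the pituitary transcription factor gene Pou1f1 (-0.59) and the receptor gene Ghrhr (-0.76). Corticotroph and melanotroph sums were lower in EE at 72 h (184 to 208 in EE and 222 to 255 in control), with Pomc blank. Epithelial sums were lower in EE at 8 h (1476 to 1907 in EE and 1931 to 2032 in control) and higher at 72 h (1801 to 1920.2 in EE and 1665 to 1740.4 in control). Adipocyte markers were blank on all pituitary arrays but 1. The part of these cell type shifts in the pituitary values of the cholesterol genes was not tested. As a sign of RNA quality, the 3′ minus 5′ difference of Actb (log2) in uterus at 8 h was 0.22 ± 0.094 in EE and 0.51 ± 0.11 in control (SD, n = 5 each), and in pituitary at 72 h 1.47 ± 0.11 in EE and 1.51 ± 0.090 in control (SD, n = 3 each). Its EE mean was below its control mean at every uterus time, for example 0.20 against 0.44 at 28 h and 0.25 against 0.62 at 48 h. The part of this difference was likewise not tested.

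Arrays of 1 uterus group that were high for one of these genes tended to be high for the others. After the group mean was removed from each array, all 21 pairs of the 7 genes had a positive correlation across 52 to 70 uterus arrays, with Pearson r from 0.300 to 0.844 and a median of 0.512. All 21 passed a permutation test within groups (100000 resamples, adjusted over the 21 pairs of a tissue), for Pearson r and for Spearman's rho. Sqle and Cyp51 were closest (r = 0.844, rho = 0.839, n = 59, permutation p = 1e-05, the smallest 100000 resamples give, adjusted p = 3e-05), and r was 0.822 without the 2 arrays farthest from the median. Sqle and Insig1 followed (r = 0.826, rho = 0.782, n = 52, adjusted permutation p = 3e-05), with 0.775 without the 2 farthest. Fdft1 and Insig1 were the least close (r = 0.300, rho = 0.341, n = 56, adjusted permutation p = 0.0283). Over all pairs of 3334 genes of like level the median r was 0.0064 and the 95th percentile 0.309. As 1 example, picked with the values seen, control replicate 4 at 2 h was the brightest control array of its group for Sqle (143), Insig1 (116) and Cyp51 (143). It was not the brightest for Idi1, and for Sqle it stood far above the next control array (44.6).

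**Figure D5:**
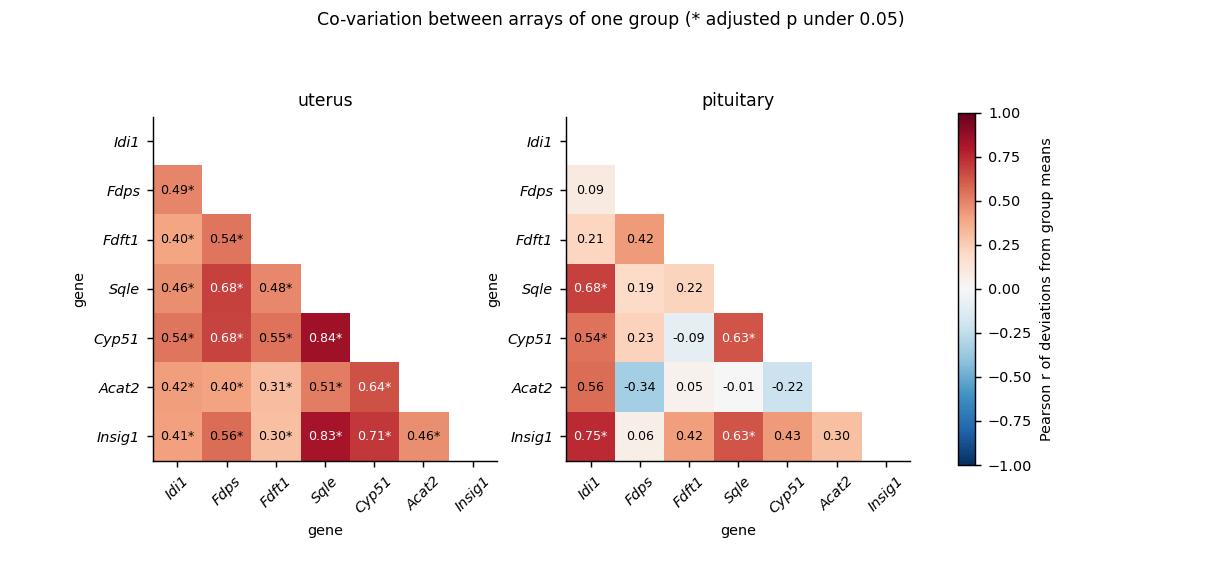
Pearson r of deviations from the group mean for each pair of the 7 genes in uterus (left, 52 to 70 arrays) and pituitary (right, 30 arrays); an asterisk marks an adjusted permutation p under 0.05. All 21 uterus pairs are positive and marked, and 5 of 21 pituitary pairs are marked, all among Idi1, Sqle, Cyp51 and Insig1.

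In pituitary the tie was looser. Across 30 arrays r ran from -0.339 to 0.745 with a median of 0.227, and 5 of 21 pairs passed: Idi1 with Insig1 (r = 0.745), with Sqle (0.680) and with Cyp51 (0.544), and Sqle with Insig1 (0.633) and with Cyp51 (0.628). Idi1 with Acat2 had r of 0.559 and did not pass (adjusted permutation p = 0.0805). Without the 2 farthest arrays these 5 were 0.621, 0.610, 0.457, 0.570 and 0.608. Over all pairs of genes of like level the 95th percentile was 0.448 there. Fdps had r of 0.092 with Idi1 and 0.057 with Insig1. Whether the tissues differ in these correlations was not tested.

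Genes with the most similar course were sought among 2868 other genes tested in all 12 comparisons with a difference of at least 0.5 somewhere. The measure was Pearson r with the mean of Idi1, Fdps, Fdft1, Cyp51 and Acat2, which were themselves tested in all 12. Sc5d came first (r = 0.982) and Dhcr7 second (0.974), both enzymes of the same pathway. Then came Mrpl33 (0.971), a mitochondrial ribosomal protein gene, Rcn1, Rbx1, Taldo1, Fkbp1a, Tubb4b, C9h2orf69 and Tuba4a (0.955 to 0.959). Each of the 5 genes had r of 0.899 (Acat2) to 0.987 (Cyp51) with the mean of the other 4. These correlations are over 12 differences from shared tissues and describe likeness of course.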

How the data were processed

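The deposited values are linear intensities per probe set of an Affymetrix RAE230A array, made by the authors from 5 µg of total RNA per the labels' protocols. How they were summarised and scaled, and why some are blank, is not given in the sources used here. Gene names came from the platform annotation: 12783 probe sets had 1 gene, 312 several and 2771 none, and 57 were array controls, and those with 1 gene were used. For a gene with several, the probe set with the highest mean was taken. Values became log2(intensity + 30.4), with 30.4 taken as the 10th percentile of the deposited intensities. For each tissue a mean per group was fitted with blanks left out gene by gene, variances were moderated with limma 3.58.1 (squeezeVar, R 4.3.3), and two-sided p-values were adjusted (Benjamini-Hochberg) over all genes tested. Differences between tissues came from 1 fit of all arrays. The fit was tested on simulated data. Groups and replicate numbers came from the titles. Correlations used Python 3.11.15. The number of arrays limits the precision. The members and lists were chosen with earlier results of these data known. Named are all members, up to 4 genes of each other list by smallest adjusted p, and Srebf1, Srebf2 and Insig2; Scap, Npc2 and others were named with their values seen. Alternatives changed the offset, scaling, probe set, blanks, filters, arrays in the fit, weights and replicates, 1 at a time. The fit with the replicate number as a block was run for tissue differences: 27 uterus and pituitary arrays share a number, time and treatment, and r of their deviations from group means ran from -0.072 to 0.15, over 0.1 for 7 of 27. The numbers were not taken to pair the arrays.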

Additional observations from a re-analysis of the deposited data

Results flagged for a closer look

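Among 92 uterus groups of 4 or 5 values of the 7 genes, 10 had an array far from the others by Dixon's criterion, where chance alone marks about 1 in 20. EE replicate 44 at 24 h was low for 3 genes: Fdps at 478 (the others 716 to 754), Fdft1 at 135 (154 to 160) and Sqle at 208 (the others 289.9 to 326). EE replicate 69 at 48 h was high for Insig1, at 295 (the others up to 230.3). Control arrays stood high for Sqle at 2 h (replicate 4, 143, next 44.6), Sqle at 8 h (replicate 25, 78.7, next 43.4) and Cyp51 at 28 h (replicate 52, 72.8, next 57.1). Control arrays stood low for Idi1 at 72 h (replicate 78, 97.8, next 152), Fdft1 at 48 h (replicate 66, 31.9, next 64.3) and Cyp51 at 24 h (replicate 39, 65.9, next 69.3). Leaving out each of these arrays did not change the call of the same gene for EE against control at that time, apart from Sqle at 24 h, which was not tested.

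The EE effect differed between tissues for the genes below, each by the test of the difference, uterus minus pituitary (log2). They were chosen knowing that they moved in opposite ways, so these tests are not independent support. For Idi1 it was 0.83, 1.75, 1.29, 2.05 and 2.41 at 4, 8, 24, 48 and 72 h. For Fdps it was 0.61, 1.69, 2.20, 2.27 and 1.31, and for Cyp51 0.98, 1.66, 1.94, 1.71 and 1.37 at those times. For Fdft1 it was 0.78, 1.25, 1.04 and 0.74, and for Acat2 0.92, 1.27, 0.70 and 0.62, from 8 h on. Sqle, not testable at 24 h, had 0.86, 2.16, 1.68 and 1.40, and Insig1 2.24, 1.45 and 1.16 at 8, 48 and 72 h.

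The EE effect in uterus also differed between neighbouring times. It grew from 2 to 4 h by 0.78 for Idi1, 1.12 for Sqle and 0.84 for Cyp51, and from 4 to 8 h by 0.97 for Fdps. From 8 to 24 h it grew by 0.68 for Fdft1, 0.51 for Cyp51 and 0.68 for Acat2, and from 24 to 28 h by 0.97 for Idi1. From 28 to 48 h the change was -0.51 for Fdft1.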

How the results depend on the processing

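In uterus the counts of genes that rose stayed within 1.5 times of those reported under all alternatives but 1: with genes below the tissue median left out, and so fewer tested, 3 rose at 24 h, 3 at 28 h and 4 at 48 h. Leaving out 1 array gave 5 to 6 at 72 h and the reported counts at the other times. In pituitary 0 to 2 genes fell at 8 h and 1 to 4 at 72 h when 1 array was left out. At the probe set with the lowest mean 1 fell at 8 h and 2 at 72 h, with only the 2 compared groups fitted 0 at 8 h, and with array weights 1 at 48 h. The tissue difference at 4 h passed for 1 to 4 genes when 1 array was left out. The cause was not tested. With the replicate block, the counts of tissue differences were those reported at all 5 times (4, 7, 5, 7 and 7 genes), and Fdft1 at 4 h turned to 0.021. Within a tissue no paired fit was possible, because EE and control share no replicate numbers at a time.

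Outside the runs without 1 array, 14 values of single genes no longer passed and 4 newly passed, against 1028 on the same side. Directions turned for 7 values there and for 24 in the runs without 1 array, all of differences that had not passed. In the runs without 1 array 37 values no longer passed and 1 newly passed, against 1097 on the same side. At 2 h in uterus Sqle was 0.020 with arrays centred, 0.019 with quantile normalization and 0.097 with blanks set to the 10th percentile. Without 1 array the 2 h differences ran from -0.19 to 0.33 for Sqle, -0.0052 to 0.14 for Fdft1, -0.038 to 0.22 for Cyp51 and -0.16 to 0.026 for Acat2. In pituitary at 4 h they ran from -0.0021 to 0.40 for Idi1, -0.0059 to 0.071 for Fdps, -0.23 to 0.040 for Cyp51, -0.052 to 0.14 for Acat2 and -0.025 to 0.24 for Insig1, and Fdft1 was -0.024 at its lowest probe set. At 24 h they ran from -0.14 to 0.041 for Fdft1, -0.042 to 0.18 for Sqle and -0.036 to 0.16 for Insig1, and Fdft1 was 0.052 at its lowest probe set and 0.0077 as the mean of probe sets. At 72 h Fdps ran from -0.12 to 0.016, and the tissue difference of Fdft1 at 4 h from -0.14 to 0.039. Blank control values limit Insig1 at 4 h and Sqle and Insig1 at 24 and 28 h in uterus, which could not be fitted.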
